A study of Mus musculus with 21 samples.

Results

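The cytosolic ribosomal proteins are the proteins of the ribosomes that translate nuclear-encoded mRNAs. Their genes were taken by symbol from the deposited count table: Rps or Rpl with a number, Rplp0 to Rplp2, and Rpsa. The rule left out rows named as pseudogenes (-ps), rows that repeat a symbol with a copy number, the kinases of Rps6, and 10 like-genes such as Rpl22l1. It gave 80 of 48474 rows, of which 33 belong to the small subunit, 44 to the large subunit and 3 to the stalk of the large subunit. RefSeq lists 3 of the 80, Rps3a2, Rps3a3 and Rpl32p, as pseudogenes.

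A ribosome is built from ribosomal RNA and one copy of most of these proteins, so cells normally make them in matched amounts. Many of their mRNAs begin with a run of pyrimidines at the 5′ end, the terminal oligopyrimidine (TOP) motif, through which mTORC1 and LARP1 control their translation. Neurons need ribosomes in the cell body and in dendrites and axons, where some ribosomal protein mRNAs are also found.

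The RNA came from tissue labelled neocortex of 21 mice, aged 17 to 19 weeks at injection. The study's methods also name cortex, whereas hippocampus is named elsewhere in its text for rNLS8 mice, and the label was followed here. The 10 TG mice were rNLS8 animals, which carry NEFH-tTA and tetO-hTDP-43ΔNLS. In these mice the neurofilament heavy chain promoter drives, in neurons, a human TDP-43 without its nuclear localization signal once doxycycline is withdrawn. The 11 WT mice were littermates with a single transgene, so they are not free of every transgene, and the labels do not say which one each carried. Both lines had been backcrossed to C57BL/6J. Every mouse of both groups received 350 µg of a control antisense oligonucleotide with no target, given in 10 µL by intracerebroventricular injection, stayed on doxycycline chow (200 mg/kg) for 2 more weeks, and was killed after 3 weeks on chow without doxycycline. Batch A held 4 WT and 3 TG mice and batch B held 7 and 7. Each library was a separate mouse, identified here by its number, and sex is not given. The comparison asks how these mRNAs differ between TG and WT mice.

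Libraries held 20700912 to 22263809 gene counts. The neocortical markers Cux2 and Tbr1 were present in every mouse, which does not tell these regions apart. Tardbp, the gene of TDP-43, had 2253 to 2827 normalized counts in WT and 2363 to 5053 in TG mice (log2 fold change 0.62, SE 0.071, adjusted p = 1.50e-07, edgeR quasi-likelihood test with Benjamini-Hochberg adjustment). The transgene is human and the reads were aligned to the mouse genome. How much transgene RNA the Tardbp row holds is not known, so it is not a measure of transgene level. By batch, the TG mice had 4405 to 5053 against 2507 to 2827 in WT mice in batch B (log2 fold change 0.79, SE 0.039, adjusted p = 1.42e-10, edgeR). In batch A they had 2363, 2903 and 3091 against 2253 to 2650, a difference that was not called (0.26, SE 0.12, adjusted p = 0.191, edgeR). The difference between the batches was not called after adjustment over all genes (-0.56, SE 0.098, unadjusted p = 7.31e-06, adjusted p = 0.133, edgeR interaction term). The library T_61340, labelled TG, was the lowest TG library for Tardbp and lay within the WT range, and the calls that change without it are given. Of 8 neuronal markers, 6 were lower and 0 higher in TG mice, and none was at 0. Their summed level was 119931 to 149042 normalized counts in WT and 86315 to 113055 in TG mice, without overlap. Of 7 microglial markers, 5 were higher and 1 lower, with summed levels of 7412 to 8542 in WT and 7809 to 11473 in TG mice. All 5 astrocyte markers were called: Gfap, which rises in reactive astrocytes, was higher by 1.03, and Aqp4, Aldh1l1, Slc1a3 and Gja1 were lower. Their summed levels of 22927 to 29221 in WT and 22509 to 34002 in TG mice overlapped, and none was at 0. The part of these shifts in the ribosomal protein values was not tested. In bulk tissue, fewer cells of a type and less RNA per cell cannot be told apart.

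The ribosomal protein mRNAs were higher in TG mice as a group. All 80 genes passed the filter on low counts, and 69 of them were higher in TG than in WT mice at an adjusted p under 0.05. Over all 18248 genes tested, 23.0% were called higher. No ribosomal protein gene was called lower by edgeR (0 of 80, against 21.7% of all genes). At an unadjusted p under 0.05 there was 1 lower gene, Rps7, and DESeq2 called 0 lower and 69 higher. Without the library T_61340, 67 genes were higher and Rps7 was lower, and the calls of Rpl32p and Rps3a2 were lost. With library totals as the only scaling, which moved the median of all genes to 0.076, 72 were higher, Rpl39 and Rpl41 among the added genes. The median log2 fold change of the 80 was 0.36, a rise of 28.0%, with quartiles of 0.23 and 0.47. The median over all genes was -0.00067, with quartiles of -0.18 and 0.18.

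**Figure D1:**
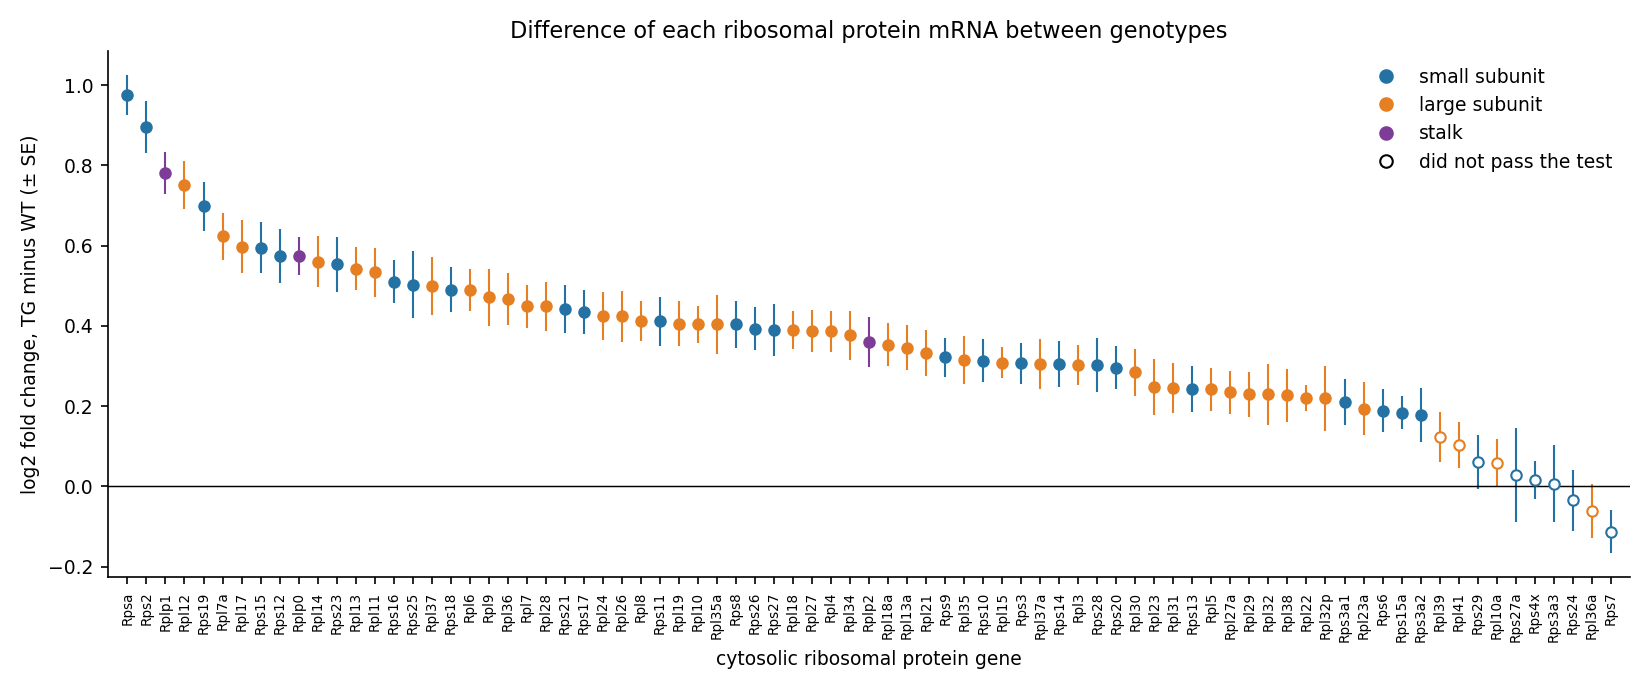
Log2 fold change (TG minus WT, adjusted for batch) of 79 of the 80 ribosomal protein genes in ranked order. Bars are standard errors, colours mark the subunit, and open circles mark genes that did not pass the test. The values run from 0.98 for Rpsa to -0.11 for Rps7, and 16 genes lie above 0.5.

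Together the 80 rows took 1.03 to 1.19% of the gene counts in WT mice (median 1.12) and 1.25 to 1.77% in TG mice (median 1.56). Every TG mouse was thus above every WT mouse in this share, to which the abundant genes add most. The mean log2 CPM of the 80 genes, in which each gene counts alike, ran from 6.73 to 6.98 in WT and from 6.89 to 7.38 in TG mice. There the groups overlapped, since TG mouse T_61342 (6.89) lay below WT mouse T_61331 (6.98) of the same batch. The mean share was 1.11 ± 0.0544% (SD, n = 11) in WT and 1.55 ± 0.155% (SD, n = 10) in TG mice, and the TG mice were the more spread. The lowest TG mice were T_61342 of batch A at 1.25% and T_70267 of batch B at 1.35%, and the highest was T_70252 of batch B at 1.77%. The difference of 0.44 percentage points was 0.48 without the mitochondrially encoded genes and 0.49 without the 20 most abundant rows.

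**Figure D2:**
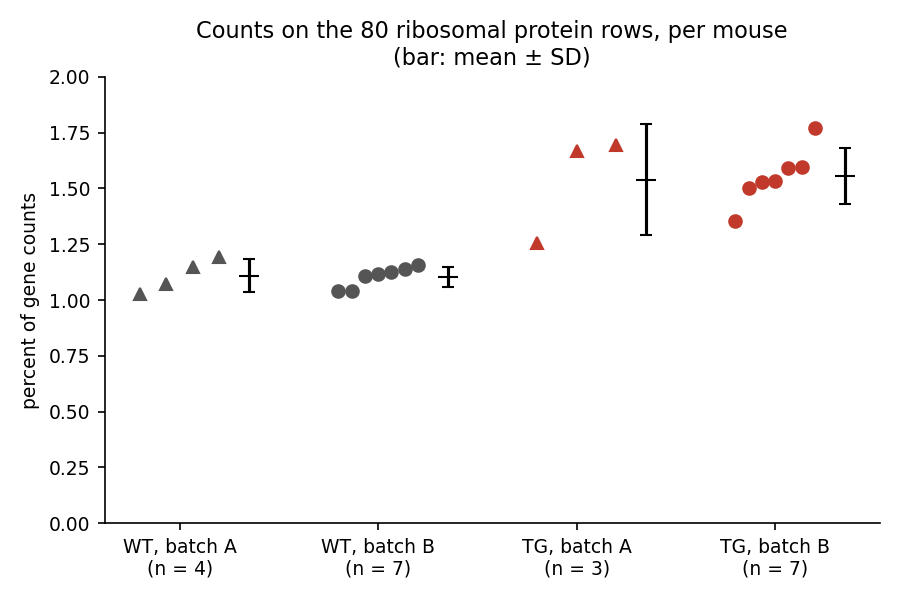
Percent of each library's gene counts on the 80 ribosomal protein rows, per mouse, by genotype and batch. Points are mice and bars are mean ± SD. All 10 TG mice lie at or above 1.25% and all 11 WT mice at or below 1.19%.

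The start sites of a few of these genes are shown because the TOP motif lies there. Of the 80 genes, 57 had an entry in the RefSeq promoter table (GRCm38.p6). Each line gives 15 bases before and 15 from the annotated start on the gene's strand, and capitals mark the longest run of C or T within 10 bases of that start, cut where it passes that limit. The first 6 genes were called higher in TG mice and the last 3 were not called.
Rpsa: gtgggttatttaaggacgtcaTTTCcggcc
Rps2: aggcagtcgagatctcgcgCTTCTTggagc
Rpl12: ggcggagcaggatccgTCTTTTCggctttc
Rpl7a: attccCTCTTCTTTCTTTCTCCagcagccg
Rplp2: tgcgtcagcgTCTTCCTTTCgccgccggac
Rps6: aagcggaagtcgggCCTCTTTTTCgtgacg
Rps24: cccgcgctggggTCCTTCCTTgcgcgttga
Rps4x: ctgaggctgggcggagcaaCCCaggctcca
Rps7: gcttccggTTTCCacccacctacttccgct

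These windows are at chr9:120127751-120127780 (Rpsa), chr17:24720048-24720077 (Rps2), chr2:32961697-32961726 (Rpl12), chr2:26910792-26910821 (Rpl7a), chr7:141447636-141447665 (Rplp2) and chr4:86857353-86857382 (Rps6, minus strand). Those of the uncalled genes are at chr14:24490663-24490692 (Rps24), chrX:102189377-102189406 (Rps4x, minus strand) and chr12:28635939-28635968 (Rps7, minus strand). Short and long runs stood on both sides: Rpsa, with the largest rise, had a run of 4, or 5 when followed past the limit, and Rps24, which was not called, had a run of 9. A run of at least 5 was present in 32 of the 57 genes (56.1%) and in 34.4% of all 27025 promoters of the table. By call, it was present in 28 of 50 genes called higher and 4 of 7 not called. The limit cut the run of 22 of the 57 genes, that of Rpl7a from 21 bases to 17. With runs followed to their end, an alternative chosen after seeing the data, 40 of the 57 genes (70.2%) and 44.9% of all promoters held such a run, with 35 of 50 called higher and 5 of 7 not called. The start of the promoter entry was the outer end of the RefSeq gene for 49 of the 57 genes and lay over 100 bases from it for 6, with a distance of 1942 bases for Rps2 and 122 for Rpl7a. The start used in this tissue is not known from these data, so the runs describe the reference only.

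In the whole window of 300 bases, searched on both strands, the ETS-factor motif CCGGAAG was found in 23 of the 57 genes (40.4%) and in 9.14% of all promoters. The YY1 motif AAGATGGC was found in 5 genes (8.77%, against 2.87%), the NRF1 motif GCATGCGC in 2 (3.51%, against 2.81%) and the TATA box letters TATAAA in 6 (10.5%, against 14.2%). CCGGAAG was found in 20 of 50 genes called higher and 3 of 7 not called. A match is a description of letters and was not tested against the expression values.

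The small subunit binds the mRNA and decodes it. Of its 33 genes, 26 were higher in TG mice, against 23.0% of all genes, and 7 did not pass. The median log2 fold change was 0.31. Rpsa, which also serves as a precursor of the laminin receptor, rose the most of all 80 genes. It lies on chromosome 9 (120127766 to 120132369, GRCm38.p6). Its normalized counts were 6809 in the lowest, 7642 in the median and 8638 in the highest WT mouse, against 12712, 14475 and 18513 in TG mice. The lowest TG mouse was thus well above the highest WT mouse. The log2 fold change was 0.98 (SE 0.050, adjusted p = 4.62e-13, edgeR), a 1.97-fold rise.

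Rps2, at the entry of the mRNA channel (chromosome 17, 24718121 to 24721927), had 4825, 5885 and 7778 normalized counts in the lowest, median and highest WT mouse and 9265, 9635 and 14427 in TG mice. The groups did not overlap, and the 3 TG mice of batch A and TG mouse T_70252 formed the upper end. The WT mice of batch A were also higher, at 6340 to 7778 against 4825 to 6211 in batch B. The log2 fold change was 0.89 (SE 0.065, adjusted p = 8.23e-11, edgeR). Rps19, which is needed to mature the RNA of the small subunit and is mutated in Diamond-Blackfan anaemia, rose from 2833 ± 233 (SD, n = 11) to 4577 ± 546 (SD, n = 10). Rps15 rose from 5107 ± 295 to 7722 ± 1015 (SD, n = 11 and 10). All 10 TG mice were above all WT mice for both genes, with log2 fold changes of 0.70 and 0.59.

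Rps6 is the phosphorylation target of the S6 kinases. Its counts ran from 4009 to 5211 in WT mice (median 4771) and from 4257 to 6407 in TG mice (median 5434), so the groups overlapped, and 7 TG mice were above every WT mouse. Its log2 fold change of 0.19 (SE 0.054, adjusted p = 0.00601, edgeR) was among the smallest of the called genes. Rps3, at the entry of the mRNA channel and also known for a part in DNA repair, changed by 0.31 (SE 0.050, adjusted p = 2.23e-05, edgeR), with 5 TG mice above every WT mouse. Rps21, among the 3 genes with the highest level per length on their own rows, changed by 0.44 (SE 0.060).

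The 7 small subunit genes that did not pass included Rps29, Rps27a, Rps4x, Rps3a3, Rps24 and Rps7. Rps7 had 2724, 2957 and 3183 normalized counts in the lowest, median and highest WT mouse and 2059, 2847 and 2979 in TG mice. The TG mice reached lower, and none was above the WT range. Its log2 fold change was -0.11 (SE 0.053, adjusted p = 0.0902, edgeR). Without TG mouse T_61340 it was called lower, as it was with TG mouse T_60303 left out too, and with the trend of fold change on transcript length removed.

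Rps24 had a log2 fold change of -0.035 (SE 0.076) and Rps4x of 0.015 (SE 0.047). Their counts spanned 3296 to 4691 in WT and 2749 to 4914 in TG mice for Rps24, and 3880 to 4877 and 3781 to 5048 for Rps4x. The groups overlapped almost fully for both genes, and Rps24 was at 0.043 with library totals as the only scaling. Rps27a, which is made as a fusion with ubiquitin, had 1883 to 3591 counts in WT and 1909 to 4059 in TG mice, and a log2 fold change of 0.028 (SE 0.12, adjusted p = 0.871, edgeR). That standard error was the largest of the 80 genes.

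**Figure D3:**
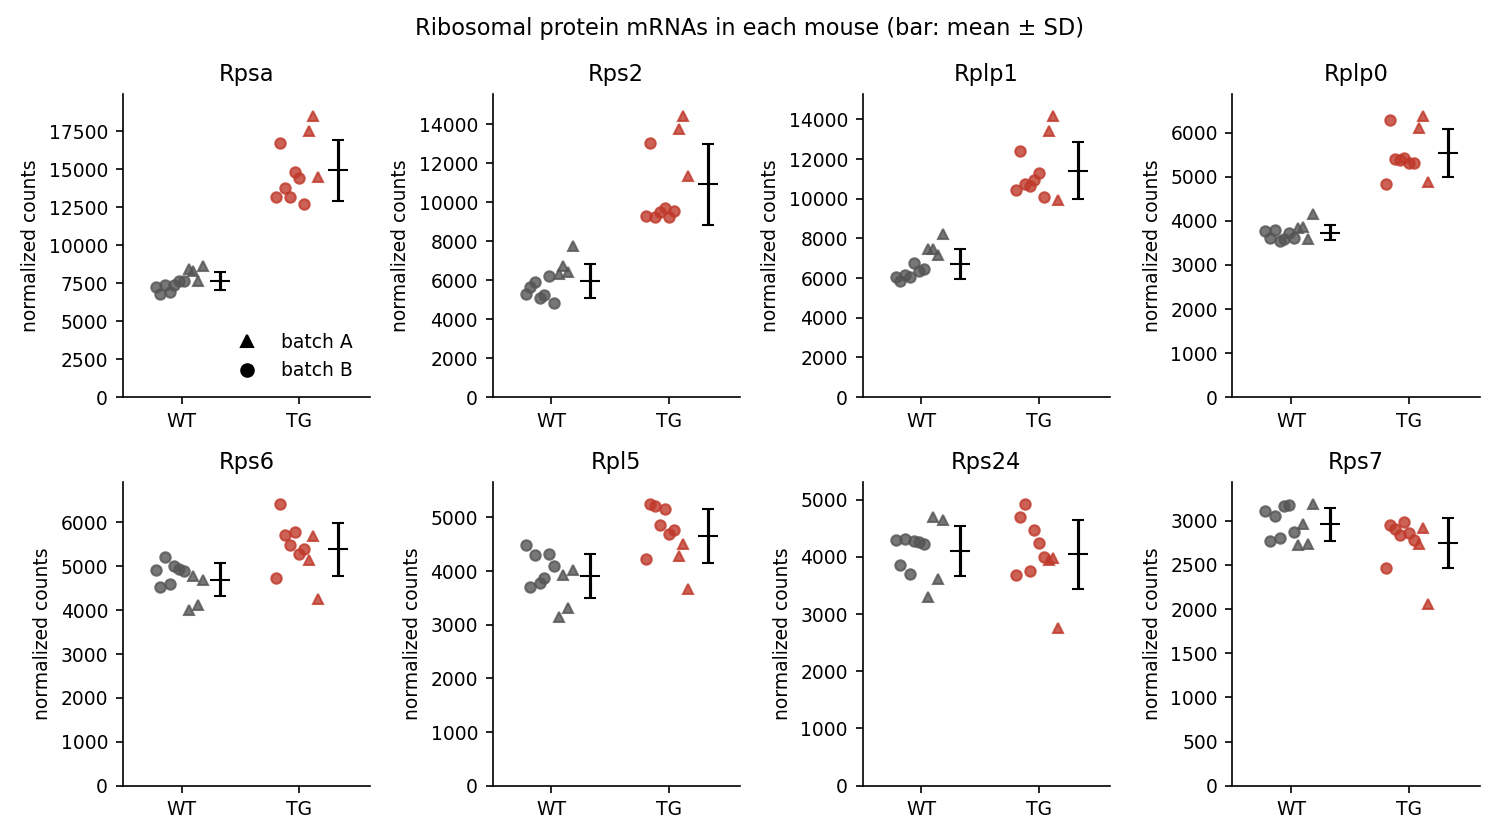
Normalized counts of 8 ribosomal protein genes in each mouse, with triangles for batch A and circles for batch B, and mean ± SD beside each group. The TG and WT mice do not overlap for Rpsa, Rps2, Rplp1 and Rplp0. They overlap in part for Rps6 and Rpl5, and for Rps24 and Rps7, which did not pass the test.

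The stalk recruits the elongation factors to the ribosome, and all 3 of its genes rose, against 23.0% of all genes. Rplp1 (chromosome 9, 61913283 to 61914510) had 5871, 6444 and 8217 normalized counts in the lowest, median and highest WT mouse and 9921, 10846 and 14173 in TG mice, without overlap. Its log2 fold change was 0.78 (SE 0.053, adjusted p = 2.63e-11, edgeR). Rplp0, which anchors the stalk, went from 3733 ± 176 (SD, n = 11) to 5536 ± 544 (SD, n = 10), also without overlap, with a log2 fold change of 0.57 (SE 0.047). Rplp2, the partner of Rplp1, had 1795 to 2457 counts in WT and 1982 to 3319 in TG mice. Its log2 fold change of 0.36 (SE 0.062, adjusted p = 4.30e-05, edgeR) was smaller than that of Rplp1, a difference that was not tested. Mouse T_70252, the highest TG mouse for 34 of the 80 genes, was the lowest TG mouse for Rplp2.

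The large subunit forms the peptide bond. Of its 44 genes outside the stalk, 40 were higher in TG mice, against 23.0% of all genes. The other 4 did not pass (Rpl39, Rpl41, Rpl10a and Rpl36a). The median log2 fold change of the 44 was 0.36. Rpl12, at the base of the stalk (chromosome 2, 32961712 to 32964045), had 3077, 3434 and 4262 normalized counts in the lowest, median and highest WT mouse and 4735, 5820 and 6671 in TG mice. The groups did not overlap, and the log2 fold change was 0.75 (SE 0.060, adjusted p = 4.32e-10, edgeR). Rpl7a rose from 2047 ± 144 to 3165 ± 383 and Rpl17 from 1250 ± 116 to 1896 ± 224 (SD, n = 11 and 10), with log2 fold changes of 0.62 and 0.60. For both genes the lowest TG mouse, T_61342, was above every WT mouse.

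Rpl5 and Rpl11 join the 5S ribosomal RNA and, outside the ribosome, can bind Mdm2. Rpl11 had 2617 to 3257 normalized counts in WT and 3479 to 5117 in TG mice, without overlap, and a log2 fold change of 0.53 (SE 0.062, adjusted p = 1.71e-07, edgeR). Rpl5 had 3145 to 4483 in WT and 3670 to 5242 in TG mice, and 7 TG mice were above the WT range. Its log2 fold change was 0.24 (SE 0.054, adjusted p = 0.000788, edgeR).

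Of 9 genes whose proteins line the exit tunnel or its rim, 8 rose and Rpl39 did not pass, with a median of 0.31. Rpl22 of this group showed a small rise with little spread, from 1561 ± 69.0 (SD, n = 11) to 1819 ± 66.6 (SD, n = 10), and no overlap. Of the 5 genes of the set on the X chromosome, 2 were called higher, Rpl10 and the pseudogene Rpl32p. Over all genes 23.0% were, and a count of 5 is too small to read against that share. The protein of Rpl10 is added late in the assembly of the large subunit. Rpl39 was not called, except with library totals as the only scaling (0.20), without TG mouse T_61342 (0.16, adjusted p = 0.0197, edgeR) and without T_70267 (0.15, adjusted p = 0.0444, edgeR). Rpl10 had 3206 to 3734 normalized counts in WT and 3894 to 5400 in TG mice, with a log2 fold change of 0.40 (SE 0.046, adjusted p = 1.30e-07, edgeR). The other 3 had log2 fold changes of 0.12 (Rpl39), 0.015 (Rps4x) and -0.062 (Rpl36a, or 0.015 with library totals), with adjusted p of 0.111, 0.824 and 0.485 by edgeR. Rpl32p was called higher by 0.22, but not without TG mouse T_61340 (0.18, adjusted p = 0.0716, edgeR). The call was also lost without any one of TG mice T_60303, T_70252 and T_70263 and WT mice T_61334, T_69523 and T_70256.

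In 20 of the 80 genes all TG mice were above all WT mice, compared with 3.85% of all genes tested. Counts of mice above every WT mouse, here and above, pool the 2 batches without adjustment for batch. In 48 genes at least 8 of the 10 TG mice were above every WT mouse, compared with 9.51% of all genes tested. The lowest TG values fell mostly on 2 mice: T_61342 was the lowest TG mouse for 54 genes and T_70267 for 21. At the other end, T_70252 was the highest for 34 and T_61340 for 31. Against the mean of the WT mice of the same batch, mouse T_61342 was above it for 50 of the 80 genes, T_70267 for 62, and the other 8 TG mice for 76 to 79. Single WT mice ranged from 3 to 77 genes above that mean, so the genes moved together also within WT.

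This joint movement was seen after the mean of each genotype and batch was subtracted. Across the 21 libraries, each gene's deviation had a Pearson r with the mean deviation of the other 79 of 0.87 in the median, and above 0.7 for 75 of the 80. The lowest value was 0.42 for Rplp2, then 0.54 for Rpl9 and 0.62 for Rps27a, and the highest was 0.96 for Rps6. These values are a description, since the points share their libraries and normalization. Of the genes outside the set, the 5 with the highest r with the mean of the 80 were Rpl17-ps10 (0.95), Gm10163, Rpl17-ps3, Gm13370 (each 0.94) and Fau (0.93). The -ps rows are pseudogene copies of Rpl17 and can share reads with it, so their r is not independent of the set. Fau encodes another small subunit protein, fused to a ubiquitin-like protein.

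The 2 batches were separate sets of mice. In batch B alone, 69 of the 80 genes were called higher (19.3% of all genes), and in batch A alone, with 4 WT and 3 TG mice, 20 were (6.99% of all genes). None was called lower in either batch. The medians were 0.36 in batch A and 0.37 in batch B, and 76 and 78 genes had a positive log2 fold change. Several single genes had close values: Rpsa changed by 1.05 in batch A and 0.94 in batch B, Rps2 by 0.97 and 0.86, Rplp1 by 0.74 and 0.80, and Rps7 by -0.15 and -0.092. Rps24 was less alike. Its TG mice had 2749 to 3973 normalized counts in batch A, against 3296 to 4691 in WT mice. In batch B they had 3686 to 4914 against 3705 to 4305. Over the 80 genes, the log2 fold changes of the batches had a Pearson r of 0.95 and a Spearman rho of 0.93.

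The test of a difference in genotype effect between batches called no gene of the set (0 of 80, edgeR interaction term) and 0.0% of all genes, so it says nothing particular to the set. With 3 TG mice in batch A, it does not show that the effects were equal. At an unadjusted p under 0.05 the number was also 0 of 80, against 1030 of all genes, and DESeq2 called 0 of the 80 and 1 of all genes. The effect in batch A minus that in batch B ran from -0.23 to 0.12 over the 80 genes.

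**Figure D4:**
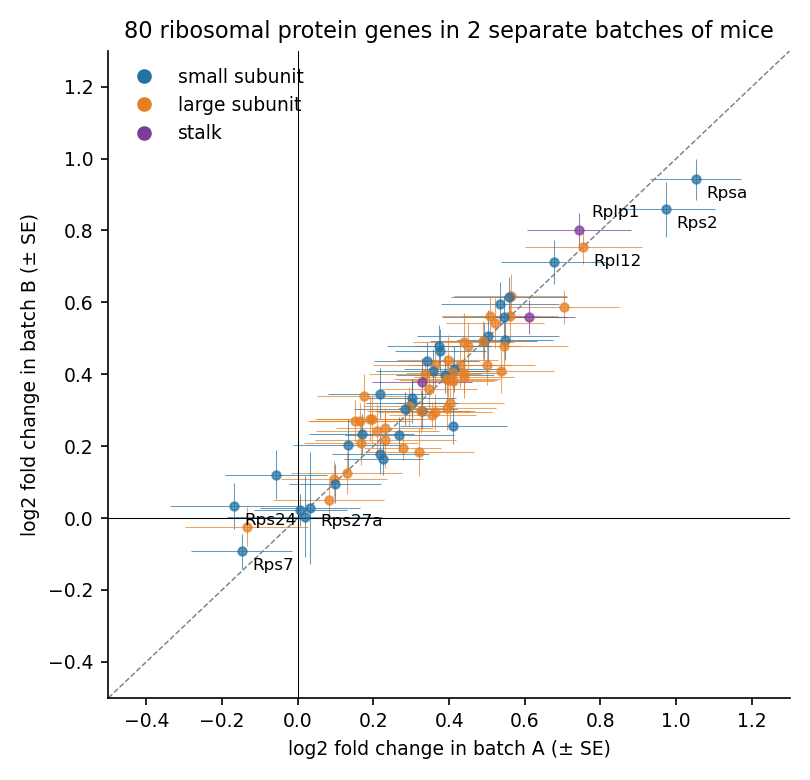
Log2 fold change of the 80 ribosomal protein genes in batch A (4 WT, 3 TG mice) and in batch B (7 WT, 7 TG mice). Bars are standard errors and the dashed line marks equal values. Points follow the line from Rps7 at the lower left to Rpsa at the upper right, with wider errors in batch A.

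Levels differ between genes by transcript length, so they were compared per kb of the principal transcript. On the genes' own rows, without counts on -ps rows, Rplp1 was the highest, at 13486 normalized counts per kb in WT and 22859 in TG mice. Rps15 (10215 and 15444) and Rps21 (8464 and 11573) followed. The lowest, each on its own row, were the pseudogenes Rps3a3 (96.5 and 95.3 per kb) and Rps3a2 (405 and 455), and Rpl21, at 365 per kb in WT mice. The place of Rpl21 is uncertain, since its row held a mean of 678 counts in WT mice and its pseudogene rows 2623. Rps3a2 was called higher by a log2 fold change of 0.18 (adjusted p = 0.0327, edgeR), but not without TG mouse T_61340 (0.16, adjusted p = 0.0574). Its call was also lost without any one of TG mice T_60303, T_69524, T_69531 and T_70263 and WT mice T_61333, T_69523, T_69532 and T_70256. Rps3a3 had 0.0063 (adjusted p = 0.967). Reads of Rps3a1, Rps3a2 and Rps3a3 can be split between these copies, so their values are uncertain. The transcripts of the set were short, with a median of 878 bases against 2855 over all tested genes with a known length. Within the 79 genes with a length, the fold change had a Spearman rho of 0.024 with length, 0.26 with GC content and 0.22 with the WT level.

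Processed pseudogenes hold copies of these mRNAs, and the counting could split reads between them. There were 241 -ps rows of 58 of the genes, with 19.5% as many counts as the genes themselves. Their summed level was 46019 ± 2611 normalized counts (SD, n = 11) in WT and 64158 ± 6632 (SD, n = 10) in TG mice, without overlap. Of the 110 -ps rows tested, 75 were higher and 0 lower by the same test, against 23.0% and 21.7% of all genes. These rows can hold reads of the genes themselves, so this is not a separate result. In WT mice the -ps rows summed to more counts than the gene's own row for 5 genes, so the levels of these genes on their own rows are uncertain. They were Rpl17 (7304 on the -ps rows), Rpl10 (4700), Rpl21 (2623), Rpl7a (2560) and Rps12 (2302). With the -ps rows added to their genes, 69 of 80 were again higher, and the largest shift was that of Rpl21, from 0.33 to 0.44.

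Related gene lists are given by their counts and medians, beside the shares of all genes above. Of 11 ribosomal proteins outside the symbol rule, 8 were tested and 7 were higher (median 0.24). Fau rose from 2788 ± 214 to 4065 ± 580 (SD, n = 11 and 10, log2 fold change 0.55, adjusted p = 9.54e-08, edgeR). Rack1, a signalling scaffold on the small subunit, rose by 0.20, and Rps27l by 0.37. Rpl36al, which encodes a protein close to that of Rpl36a, was not called (0.011).

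Of the 78 mitochondrial ribosomal proteins, 23 were higher, 13 lower and 42 not called, with a median of 0.040. Mrpl50 rose by 0.38 and Mrpl9 by 0.32, and Mrpl16 fell by 0.46 and Mrps33 by 0.34 on the log2 scale.

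The mRNAs of 10 genes listed as elongation factors were mostly not called: 3 rose and 7 did not pass (median 0.036). Eef1a1, which brings aminoacyl-tRNA to the ribosome and has a TOP motif, had 45501 ± 3645 normalized counts (SD, n = 11) in WT and 42206 ± 2724 (SD, n = 10) in TG mice. Eef2, which moves the ribosome along the mRNA and also has a TOP motif, had 27647 ± 823 and 27926 ± 2365. Their log2 fold changes were -0.10 (adjusted p = 0.0802) and 0.017 (adjusted p = 0.771, edgeR). Eif5a2 rose by 0.56, Eef1g by 0.33 and Eef1e1 by 0.17. Eef1e1 is in this list by its symbol, and its protein is not itself an elongation factor.

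Among 12 other TOP mRNAs, the 2 factors above included, 6 rose, 3 fell and 3 did not pass (median 0.099). Vim, an intermediate filament of glia, rose by 0.64, and Pabpc1, the poly(A)-binding protein, by 0.45. Nap1l1, a histone chaperone, fell by 0.44, Npm1 by 0.18 and Tpt1 by 0.14 on the log2 scale. Rack1, named above, is also among these 12. Among 30 initiation factors, with Pabpc1 and Eif4b counted in both lists, 16 rose and 7 fell (median 0.12). Eif5b rose by 0.38 and Eif3h by 0.30, and Eif4h fell by 0.33 on the log2 scale.

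Of 34 genes of ribosome assembly, 17 rose, 3 fell and 14 did not pass (median 0.15). Grwd1, a histone-binding factor of large subunit assembly, rose by 0.61, Utp4 and Nop14 of the small subunit processome by 0.51 each, and Rrp9 by 0.51. Fbl, the methyltransferase of ribosomal RNA, fell by 0.23 on the log2 scale. Of 19 genes of RNA polymerase I and its factors, 7 rose, 3 fell and 9 did not pass (median 0.14). Taf1a rose by 0.72, Twistnb by 0.51 and Polr2f by 0.39, and Polr1c rose by 0.28.

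Of 14 regulators of growth and of ribosomal protein mRNA translation, 4 rose, Mycn fell by 0.39 on the log2 scale, and 9 did not pass. Larp1, which binds the TOP motif, rose from 3084 ± 155 (SD, n = 11) to 4172 ± 260 (SD, n = 10), with a log2 fold change of 0.44 (SE 0.040, adjusted p = 4.73e-09, edgeR). Eif4ebp1, a repressor of cap-dependent translation, rose by 1.19 from a low level of 53.7 ± 9.86 to 121 ± 27.5 counts (SD, n = 11 and 10), and Eif4ebp2 rose by 0.30. Mtor, the kinase that acts on Larp1 and on these repressors, was not called (-0.054, SE 0.049, adjusted p = 0.405, edgeR). These are mRNA levels, and no measure of protein or of translation was made here.

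**Figure D5:**
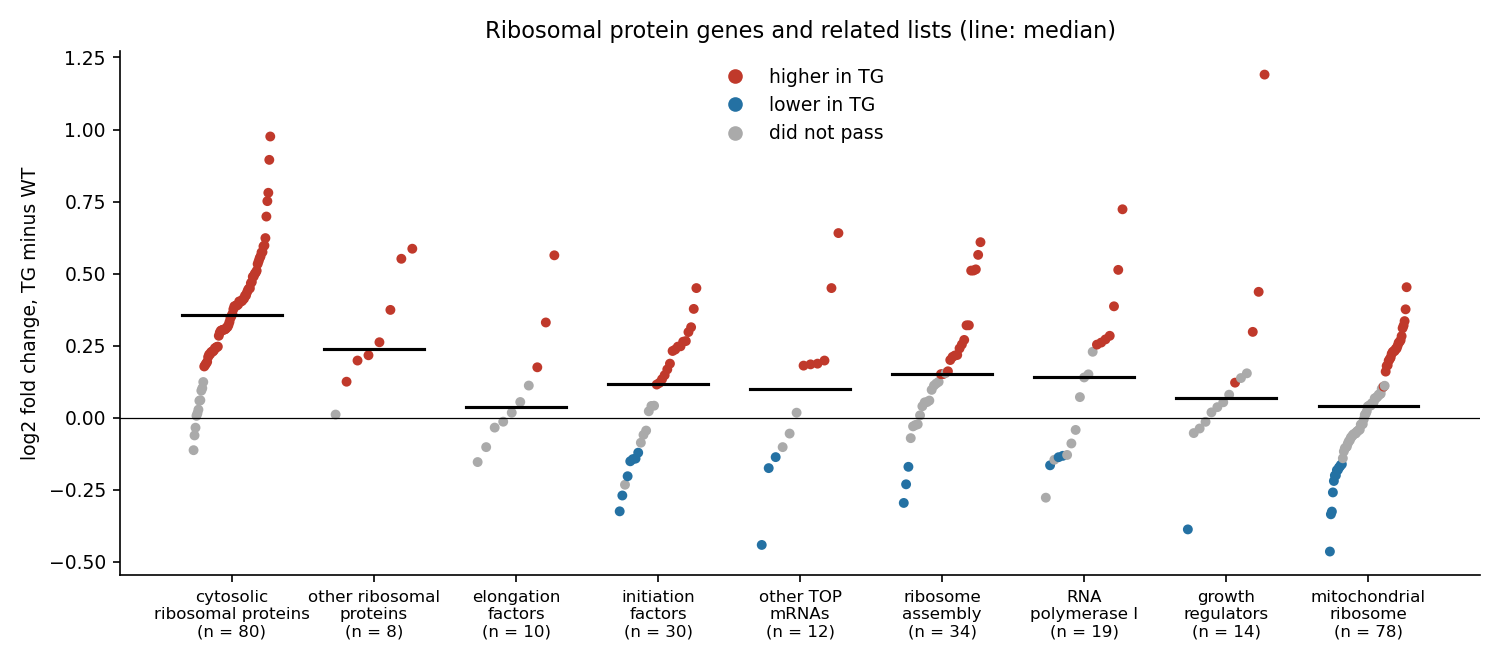
Log2 fold change (TG minus WT) of each tested gene in the 80 ribosomal protein genes and in 8 related lists. Red and blue points are genes called higher and lower, grey points did not pass, and lines are medians. The medians are 0.36 for the ribosomal proteins and 0.24 for the other ribosomal proteins, and lie between 0.036 and 0.15 for the other 7 lists.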

How the data were processed

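Bulk mRNA libraries of 21 mice (RNA integrity above 7, paired-end sequencing at BGI) were aligned to GRCm38. The submitters' processing notes name HISAT, HISAT2, Bowtie, Bowtie2 and RSEM, and the program that made the count table is not given in the sources used here. The authors deposited raw counts per gene, used as deposited. edgeR 4.0.16 (R 4.3.3) was run with TMM scaling, its default filter on low counts, genotype and batch as terms, a quasi-likelihood test, and Benjamini-Hochberg adjustment over all 18248 genes tested (threshold 0.05). DESeq2 1.42.0 and the other settings in the closing section were alternatives. Normalized counts are scaled to the mean library. Names, positions and promoters are from RefSeq (GRCm38.p6), and transcript lengths from the GENCODE annotation.

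The genes and lists were chosen with earlier results of these data known. Genes named with values were the 8 largest changes among called genes with a mean of at least 50 counts, the 3 highest and 3 lowest levels per kb, and a fixed list of 10. In each related list up to 4 genes with the smallest adjusted p and a few set genes were named. Genes outside these rules (Rps4x, Rps7, Rps10, Rps12, Rps18, Rps24, Rps28, Rps29, Rpl9, Rpl10a, Rpl22, Rpl23a, Rpl32, Rpl32p, Rpl36a, Rpl38, Rpl39, Rpl41 and some list genes) were chosen after their values were seen. The scripts were tested on simulated counts. A few genes are counted but not reported by name here.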

Additional observations from a re-analysis of the deposited data

Results flagged for a closer look

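Among the 10 TG mice, the highest or lowest value was checked for a gap to its neighbour that is large for the whole range (Dixon's ratio at the 95% level), in 22 groups of values: the 20 named genes, the share of counts and the mean level of the 80 genes. Chance gives about 1 in 20 such groups. One stood out. Rps27a in TG mouse T_70252 (batch B) had 4059 normalized counts, with a gap of 0.567 of the whole range to the next TG mouse, and the lowest TG mouse had 1909. High values of this gene also occurred in WT mice of batch B: T_70262 had 3591, T_70260 had 3184 and T_69523 had 2952 normalized counts, and the other 8 WT mice had 1883 to 2522. Without this mouse the log2 fold change of Rps27a was -0.061 (adjusted p = 0.670, edgeR) in place of 0.028. The same mouse had the highest value of the TG mice for 34 of the 80 genes. The cause was not tested.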

How the results depend on the processing

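Of 36 alternatives to the main edgeR fit, 21 left out 1 mouse each and 1, with TG mice T_60303 and T_61340 left out together, was chosen after seeing the data. The number of ribosomal protein genes higher in TG mice was 69 in the main fit, 67 to 71 with 1 mouse left out, 64 without both mice, and 20 in batch A alone, which has fewer mice. The number called lower was 0 in the main fit, 0 to 1 with 1 mouse left out, and 1 without both mice or with the length trend removed, each time Rps7. The median log2 fold change was 0.32 to 0.39 with 1 mouse left out and 0.32 to 0.43 in the other alternatives, the highest with library totals alone, which shifted the median of all genes to 0.076. Of the 69 genes, 64 were called in every alternative but batch A alone. Rpl32, Rpl38 and Rpl23a were lost without both mice, and Rpl32p and Rps3a2 in several alternatives. The count of genes with a batch difference was 0 in each of its 23 alternatives. Of the 20 named genes, 10 kept their call and direction throughout. Rps3a3 changed sign to -0.021 in DESeq2 and -0.017 in edgeR without batch, -0.061 without both mice, -0.020 with the length trend removed, and ranged from -0.031 to 0.055 with 1 mouse left out. Rps27a changed to -0.0025 without both mice and ranged from -0.061 to 0.092. The cause was not tested. No paired analysis was possible because the groups share no replicate numbers. Depth limits Rps3a3 most, the gene with the fewest counts (mean 76.7 in WT mice).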

Other observations

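Some ribosomal protein genes appear in the table under further rows with a copy number, 8 rows for 4 genes. The copy rows of Rps28 summed to a mean of 2157 normalized counts in WT mice against 1195 on its own row, and that of Rpl10a held 1344 against 1349. With these rows summed into their genes, 69 of the 80 genes were again higher in TG mice. Levels of Rps28, Rpl10a, Rps10 and Rps18 in single rows are uncertain.

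Tissue-restricted relatives of these proteins were at or near 0. Rpl3l, known from heart and skeletal muscle, had a mean of 3.95 normalized counts in WT and 4.23 in TG mice, Rpl39l, known from testis, had 1.32 and 1.42, and Rpl10l, also known from testis, had 0 counts in every mouse. None passed the filter on low counts. Rpl22l1, a relative of Rpl22, was well detected and higher in TG mice by 0.22 on the log2 scale (adjusted p = 0.00236, edgeR).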
